A study of Mus musculus with 117 samples.

Results

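Cyp2a4, Cyp2a5, Cyp2a12, Cyp2a22, Cyp2b9, Cyp2b10 and Cyp2b13 are 7 of the 21631 protein-coding genes annotated on mouse chromosomes 1 to 19 and X. They were listed by name, as the Cyp2a genes and the principal Cyp2b genes of 1 cytochrome P450 cluster on chromosome 7. Each gene was read over its span in the GRCm38 (mm10) assembly with 2 kb added on each side, which gave 811 bins of 200 bp in all. Every bin carried the number of 1 of 14 chromatin states in each strain.

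The study mapped 4 histone marks (H3K4me1, H3K4me3, H3K27ac and H3K27me3) by chromatin immunoprecipitation sequencing in hepatocytes, the parenchymal cells of the liver. All mice were females aged 12 weeks from 9 inbred strains, and the labels name no treatment. CAST/EiJ, PWK/PhJ and WSB/EiJ are wild-derived, and A/J, C57BL/6J, DBA/2J, NOD/ShiLtJ, NZO/HlLtJ and 129S1/SvImJ are classical inbred strains. Each strain had 3 mice for each mark and 1 input library, and these were combined into 1 deposited segmentation, so a strain is 1 value and no spread between mice of a strain can be given. SDs below are between strains (n = 9) and the sequencing depth is unknown. In these bulk preparations a state carried by fewer cells and a weaker signal in all cells cannot be told apart.

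Cytochrome P450 enzymes are haem proteins of the endoplasmic reticulum that oxidise drugs, steroids, bile acids and other small molecules, with electrons supplied by the reductase encoded by Por. Cyp2b10 is the classical phenobarbital-induced gene of mouse liver and is switched on through the nuclear receptor CAR, encoded by Nr1i3. Cyp2b9, Cyp2b13 and Cyp2a4 are known as genes expressed more in female than in male liver, under the control of the sex-dependent pattern of growth hormone release. Cyp2a5 hydroxylates coumarin and nicotine, and Cyp2a12 hydroxylates steroids and bile acids.

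The states are used as names, because no source used here says which marks each one holds. States 1 to 4 were counted as 1 set because they covered the genes of hepatocytes. Over 10 hepatocyte marker genes the median share of bins in states 1 to 4 was 97.4%, from 49.1% at Cyp2e1 to 100% at Apoa1. It was 0.133% over 5 Kupffer cell and leukocyte markers, 0% over 5 stellate cell markers, 0.229% over 5 bile duct markers and 34.8% over 5 endothelial markers. Single genes of these lists were higher, with Cd68 at 71.9% and Lyve1 at 85.5%. Over 10 developmental regulators silent in adult liver it was 0%, and state 13 covered a mean of 68.5% of their bins. State 14 was the most widespread state, at 70.7% to 74.0% of the genome in each strain, and states 1 to 4 covered 6.45% to 8.70%. 129S1/SvImJ was the strain with 8.70%.

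All 7 genes stood above the typical gene in states 1 to 4. The highest means were those of Cyp2a5, 99.6% ± 1.09 of bins, and Cyp2a4, 99.1% ± 1.85, followed by Cyp2a12 with 92.0% ± 13.1 and Cyp2a22 with 79.1% ± 29.7. Cyp2b13 followed with 70.03% ± 30.6, Cyp2b9 with 68.0% ± 24.7 and Cyp2b10 with 66.3% ± 13.7. The medians over strains were 100%, 100%, 100%, 85%, 84.1%, 73.6% and 71.7%, in the same order of genes. Neighbours from Cyp2a22 to Cyp2b10 in this order differed by less than their SDs. The median over all protein-coding genes was 6.92%.

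The share in each strain was set against the median gene of the same strain, which ran from 5.30% to 7.55%. Cyp2b10, Cyp2a4, Cyp2a5 and Cyp2a12 were above it in 9 of 9 strains, each with an adjusted p of 0.00473 (exact permutation by sign flips, two-sided, over 9 strains, Benjamini-Hochberg over all genes). Cyp2b13, Cyp2b9 and Cyp2a22 were above it in 8 of 9 strains, each with an adjusted p of 0.00906 in the same exact test. The exception was 129S1/SvImJ for Cyp2b13 and Cyp2b9, and DBA/2J for Cyp2a22. The background of this test is wide, as 46.0% of all genes were called above the median and 9683 genes below it, so 7 of 7 says that these genes belong to the large class of genes with these states. The unadjusted p cannot go below 0.00391 with 9 strains.

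**Figure D1:**
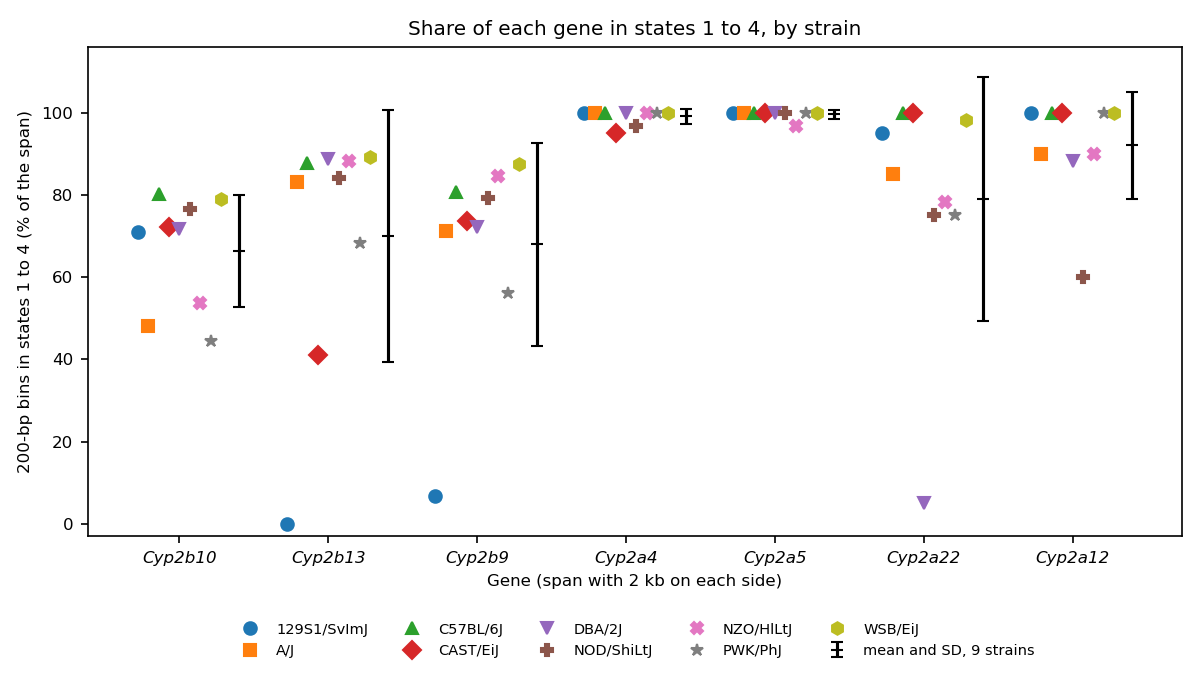
The vertical axis is the percentage of a gene's 200-bp bins in states 1 to 4 and the horizontal axis lists the genes in chromosome order; each symbol is 1 strain, and the black bar at the right of each gene is the mean and SD over 9 strains. Cyp2a4 and Cyp2a5 lie at 95.1% or more in all strains, while 129S1/SvImJ lies at 0% and 6.73% for Cyp2b13 and Cyp2b9, and DBA/2J at 5.0% for Cyp2a22.

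The 7 genes differed widely in how much the strains varied. For each of the 36 pairs of strains the percentage of bins in different states was taken, and the mean over pairs is called the pair difference. It was 58.3% (SD over pairs 29.3) at Cyp2b9, 55.6% (25.1) at Cyp2a22, 54.7% (27.2) at Cyp2b13, 50.7% (12.6) at Cyp2b10 and 39.95% (18.8) at Cyp2a12. It was 19.7% (9.40) at Cyp2a5 and 13.2% (8.89) at Cyp2a4. The median over all protein-coding genes was also 19.7% and 1 gene in 10 lay at 37.6% or more. Thus 4 of the 7 genes reached 40% or more, a level that 7.38% of all genes reached, Cyp2a12 lay just below it, and Cyp2a5 and Cyp2a4 stood at percentiles 50 and 31.6 of all genes. Over only those bins of each gene that were outside state 14 in at least 1 strain, Cyp2a5 and Cyp2a4 stood at percentiles 8.05 and 4.89, with unchanged values, and Cyp2a12 at 75.8 in place of 92.5. In that setting many more genes of the genome reached 40% (count given below, with the dependence on processing). The 7.38%, here and wherever it is used below, counts all bins, those in state 14 in all strains included. It is therefore not a like-for-like background for genes that lie largely outside state 14.

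The high pair differences did not rest on a single strain, although single strains added to them. Without 129S1/SvImJ the pair difference was 45.2% at Cyp2b13 and 47.9% at Cyp2b9. Without DBA/2J it was 44.3% at Cyp2a22, and without PWK/PhJ it was 47.8% at Cyp2b10. Among all genes computed without the same strain these stood at percentiles 95.95, 97.3, 95.5 and 98.0, in the same order. Cyp2a12 fell to 31.0% without NOD/ShiLtJ, at percentile 80.4. A further strain stood apart at the Cyp2b13 and Cyp2b9 genes once 129S1/SvImJ was left out. PWK/PhJ differed from each remaining strain in 77.9% to 88.9% of bins at Cyp2b9, and CAST/EiJ in 64.1% to 80.5% at Cyp2b13. Pairs without 129S1/SvImJ and PWK/PhJ ran from 17.3% to 57.2% at Cyp2b9. The pair difference without both outlying strains was not taken.

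**Figure D2:**
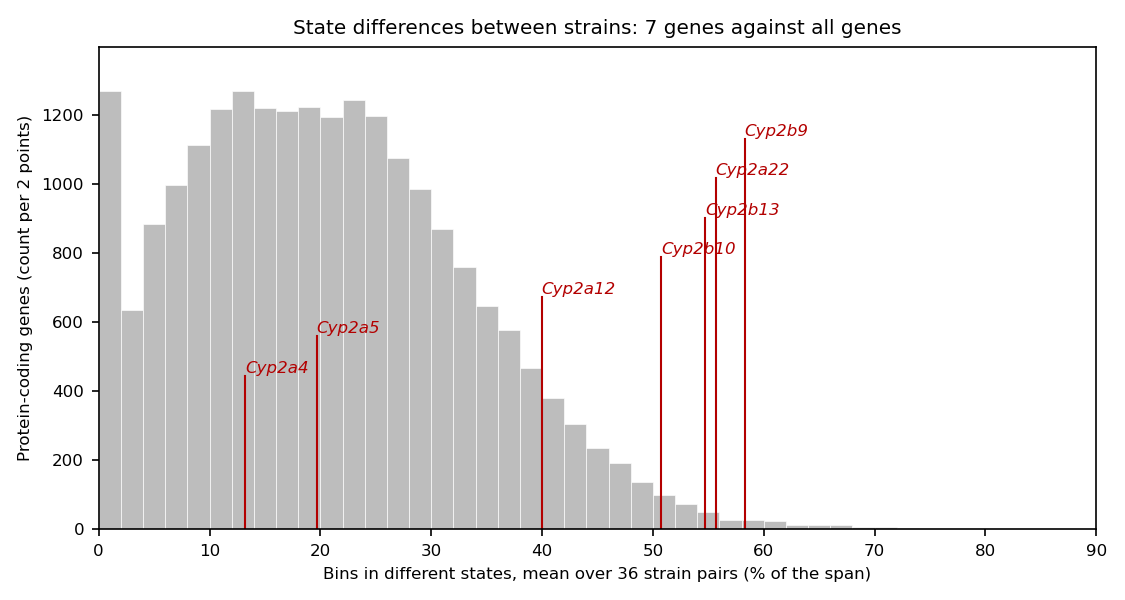
The horizontal axis is the percentage of bins in different states, averaged over 36 strain pairs; grey bars count the 21631 protein-coding genes in steps of 2 percentage points and red lines mark the 7 P450 genes, with line heights set only to separate the names. Cyp2b9, Cyp2a22, Cyp2b13 and Cyp2b10 lie at 50.7% or more, in the right tail, and Cyp2a4 and Cyp2a5 lie in the bulk.

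Cyp2b13 and Cyp2b9 lie next to each other on the plus strand, at chr7:26061388-26096197 and chr7:26173350-26210661. Their start regions are printed here because they are near-identical. The rest of the 2 genes was not compared in sequence. The sequences are RefSeq's for GRCm38.p6, plus strand, from 250 bases before the start site to 50 bases into the gene, at chr7:26061245-26061544 and chr7:26173159-26173458. Capitals mark the bases that differ between them.
Cyp2b13: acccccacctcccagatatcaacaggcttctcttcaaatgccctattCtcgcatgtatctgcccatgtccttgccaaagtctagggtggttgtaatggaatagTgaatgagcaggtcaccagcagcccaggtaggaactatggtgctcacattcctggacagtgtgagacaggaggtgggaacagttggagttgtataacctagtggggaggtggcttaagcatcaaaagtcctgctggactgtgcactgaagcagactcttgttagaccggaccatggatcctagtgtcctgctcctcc
Cyp2b9: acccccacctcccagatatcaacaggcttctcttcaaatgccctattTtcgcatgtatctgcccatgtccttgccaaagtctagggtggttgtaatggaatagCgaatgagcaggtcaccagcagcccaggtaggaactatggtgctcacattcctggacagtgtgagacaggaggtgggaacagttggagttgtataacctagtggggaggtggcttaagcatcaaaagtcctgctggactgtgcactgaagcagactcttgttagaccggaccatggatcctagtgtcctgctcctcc
The windows were identical at 99.3% of aligned positions, with 2 substitutions. Each held TTGCNNAA, the core of a C/EBP-type site, 180 bases before the start site, and AGGTCA, a nuclear receptor half-site, 138 bases before it. These were among 5 motifs searched on both strands and chosen with the sequences in view. TTGCNNAA was present in 10.8% of 27025 promoter windows of the same length and AGGTCA in 16.04%.

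In 129S1/SvImJ both genes were in state 14 almost throughout, and in the other 8 strains states 1 to 4 covered the larger portion of both, except at Cyp2b13 in CAST/EiJ. Cyp2b13 had 0% of its 195 bins in states 1 to 4 in 129S1/SvImJ, 41.0% in CAST/EiJ and 68.2% in PWK/PhJ. A/J had 83.1%, NOD/ShiLtJ 84.1%, C57BL/6J 87.7%, NZO/HlLtJ 88.2%, DBA/2J 88.7% and WSB/EiJ 89.2%. The 129S1/SvImJ, CAST/EiJ and PWK/PhJ values were the low ones, and the other 6 strains lay within 83.1% to 89.2%. State 14 took up 99.5% of Cyp2b13 in 129S1/SvImJ, 48.2% in CAST/EiJ and 22.1% in PWK/PhJ.

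Cyp2b9 had 6.73% of its 208 bins in states 1 to 4 in 129S1/SvImJ and 56.2% in PWK/PhJ. DBA/2J and A/J had 72.1% and 71.2%, CAST/EiJ 73.6%, NOD/ShiLtJ 79.3%, C57BL/6J 80.8%, NZO/HlLtJ 84.6% and WSB/EiJ 87.5%. No other strain came near the 129S1/SvImJ value, and PWK/PhJ was the next lowest. State 14 covered 93.3% of Cyp2b9 in 129S1/SvImJ, 31.7% in PWK/PhJ and 0% in the other 7 strains. The only bins of Cyp2b9 outside state 14 in 129S1/SvImJ were 14 adjoining bins in state 4, at chr7:26200801-26203600, inside the gene. Every bin of Cyp2b9 differed between 129S1/SvImJ and WSB/EiJ, a pair difference of 100%.

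The start sites followed the genes. All 11 bins within 1 kb of the start site of Cyp2b13, and all 11 of Cyp2b9, were in state 14 in 129S1/SvImJ and in states 1 to 4 in every other strain. State 3 at these bins varied more. Cyp2b9 had 2 start bins in state 3 in CAST/EiJ, 5 in A/J, NOD/ShiLtJ and PWK/PhJ, 6 in C57BL/6J, NZO/HlLtJ and WSB/EiJ and 7 in DBA/2J. Cyp2b13 had 6 in CAST/EiJ and in DBA/2J, 3 in NZO/HlLtJ and in WSB/EiJ, 1 in A/J and 0 in C57BL/6J, NOD/ShiLtJ, PWK/PhJ and 129S1/SvImJ. So only in C57BL/6J, NOD/ShiLtJ and PWK/PhJ was state 3 present at the start of Cyp2b9 and listed at 0 bins at that of Cyp2b13.

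**Figure D3:**
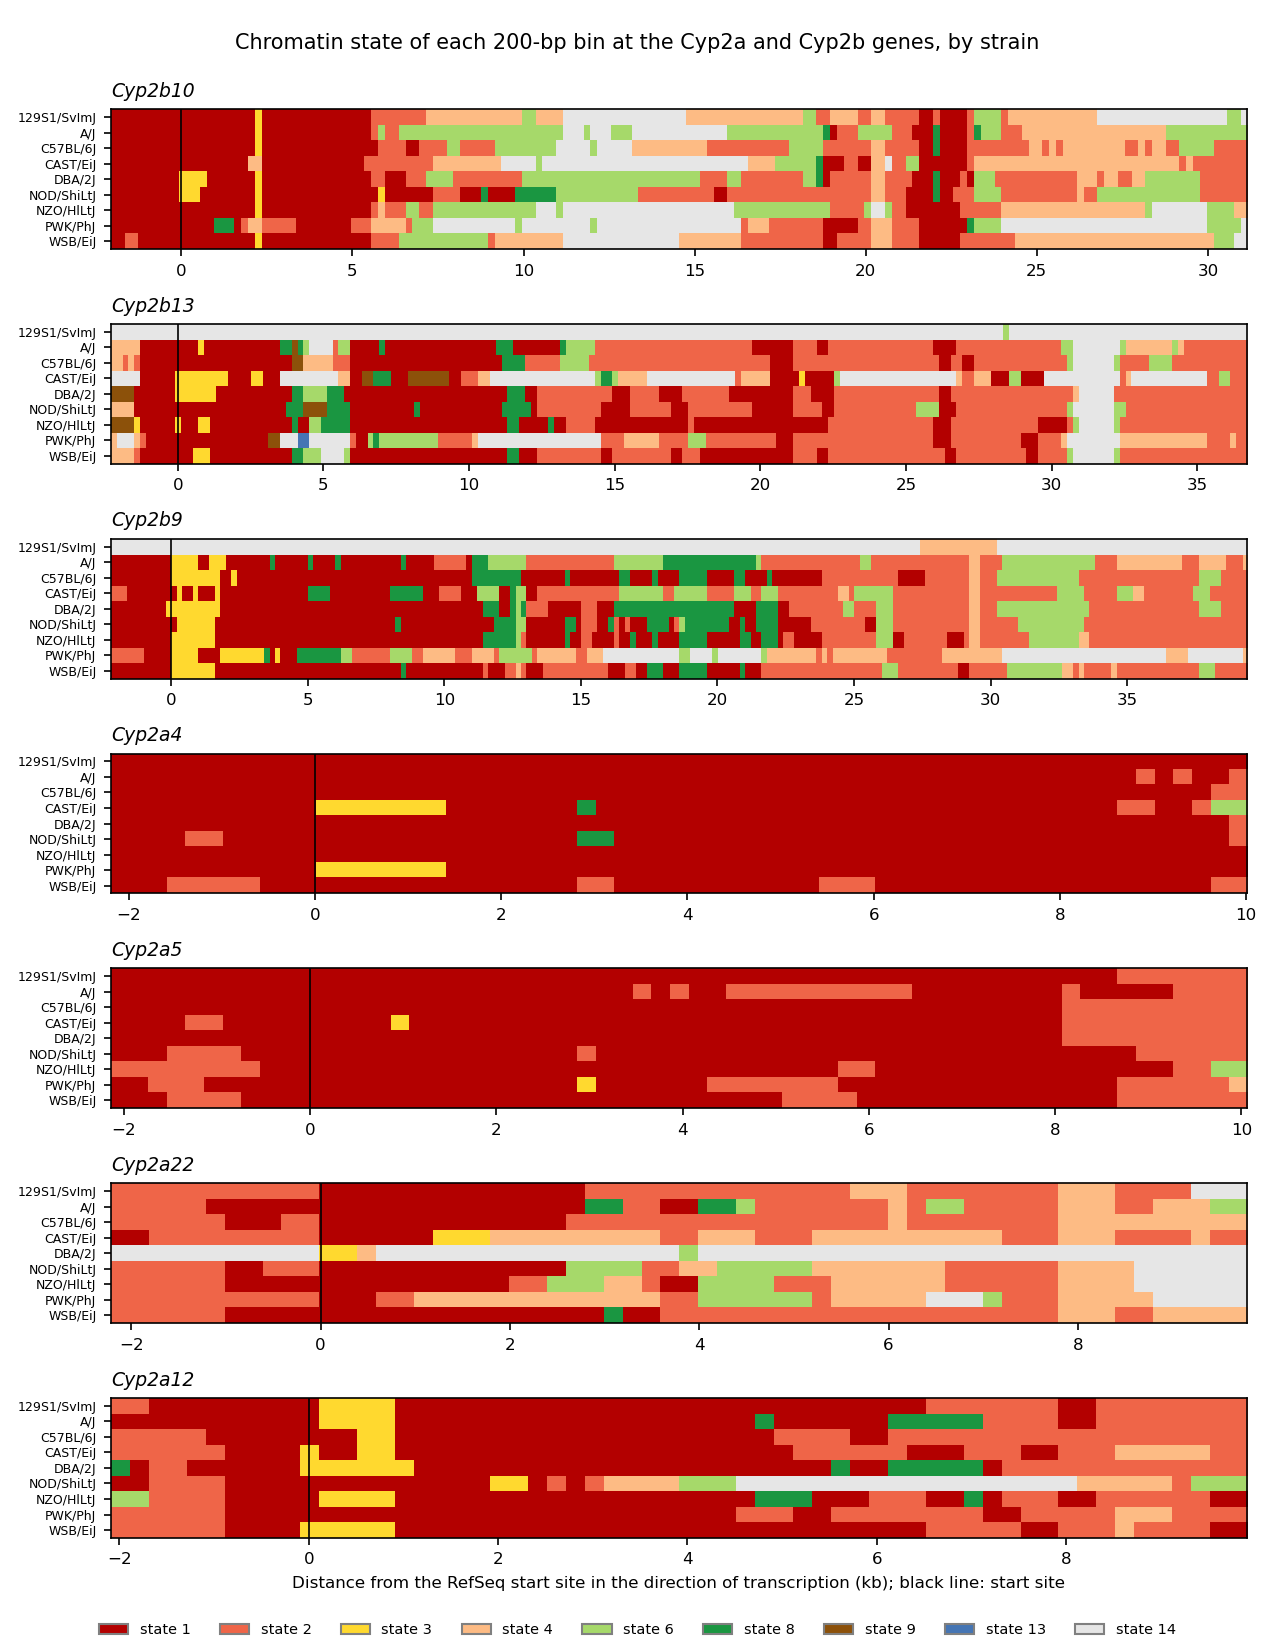
Each panel is 1 gene, with strains as rows, distance from the RefSeq start site in kb along the horizontal axis and the state of each 200-bp bin as colour. Cyp2b13 and Cyp2b9 are grey (state 14) in 129S1/SvImJ apart from 14 bins in state 4 and a single bin in state 6, Cyp2a22 is grey in DBA/2J except for 3 bins at its start and 1 in state 6 within it, and Cyp2a4 and Cyp2a5 are in states 1 and 2 nearly throughout.

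The state 14 block of 129S1/SvImJ was wider than the 2 genes. Between the end of Cyp2b10 and the start of Cyp2a4 (chr7:25926801-26307000, 380.2 kb) 129S1/SvImJ had 4.42% of bins in states 1 to 4 and 94.4% in state 14. The other 8 strains had 39.5% to 49.3% in states 1 to 4, with a median of 43.8%, and 44.9% to 56.4% in state 14. In the 77 kb between Cyp2b13 and Cyp2b9 the values were 0% in 129S1/SvImJ and 46.0% to 61.6% in the others. So 129S1/SvImJ was the lowest strain in both stretches. The longer stretch contains Cyp2b13 and Cyp2b9, where this strain was already seen to be the lowest. These values are therefore a description and not a separate result. Unbroken state 14 segments of 129S1/SvImJ ran over 92.0 kb (chr7:25997801-26089800), 71.0 kb (chr7:26129801-26200800) and 87.6 kb (chr7:26203601-26291200). To the right, a state 1 segment of 15.8 kb at chr7:26302201-26318000 held the whole of Cyp2a4 in the same strain.

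The same stretch led the autosomes of 129S1/SvImJ. Runs of bins were collected in which 129S1/SvImJ had state 14 and each of the other 8 strains another state. The longest of 4644 such runs was 23.2 kb at chr7:26166001-26189200 and held the start of Cyp2b9. Runs within the Cyp2b9 and Cyp2b13 spans also ranked 5, 7 and 8, and the first 9 runs all lay between Cyp2b10 and Cyp2a4. Pseudogene loci inside the stretch, looked up after the genes had been seen, had their lowest share in 129S1/SvImJ. Their bins are among those already counted for the stretch between Cyp2b10 and Cyp2a4, so they are not separate results. Cyp2b27-ps had 0% in states 1 to 4 in 129S1/SvImJ against 54.2% to 80.3% in the others, Cyp2b26-ps 0% against 72.2% to 98.9%, and Cyp2b28-ps 3.30% against 11.3% to 30.2%.

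The genome-wide share of 129S1/SvImJ in states 1 to 4 was the highest of the 9 strains. Over the 7 genes together it was the lowest, at 45.7% of 811 bins against 67.9% to 89.8% in the other strains. How reads were placed among Cyp2b genes with near-identical start regions was not tested. Whether the 129S1/SvImJ genome carries the stretch in the form of the reference was not tested either. A stretch missing from the genome and a stretch present in state 14 cannot be told apart from the state numbers.

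**Figure D4:**
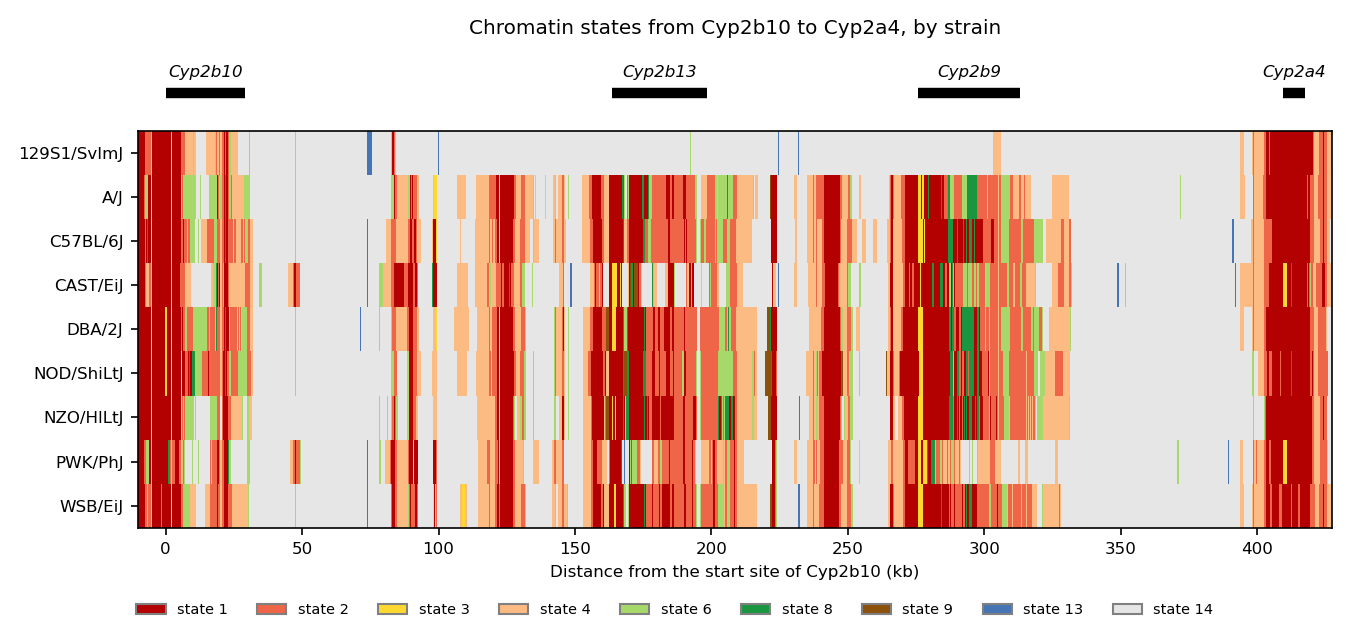
The horizontal axis is the distance in kb from the start site of Cyp2b10 and each row is 1 strain; colour gives the state of each 200-bp bin and black bars mark the 4 genes. From the last part of Cyp2b10 to shortly before Cyp2a4, 129S1/SvImJ is almost wholly in state 14 (94.4% of bins between the end of Cyp2b10 and the start of Cyp2a4). The other 8 strains show blocks of states 1 to 4 at and between Cyp2b13 and Cyp2b9.

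Cyp2a22 had the same kind of pattern in another strain. It lies on the minus strand at chr7:26931631-26939413 and its closest relative in the start region is Cyp2a12, on the plus strand at chr7:27029090-27036818. Their start regions (RefSeq, GRCm38.p6, each in the direction of transcription, chr7:26939337-26939636 minus strand and chr7:27028840-27029139 plus strand) are shown because these copies, unlike Cyp2b9 and Cyp2b13, differ at many places along the window. Capitals mark the bases without an identical partner in the other gene.
Cyp2a22: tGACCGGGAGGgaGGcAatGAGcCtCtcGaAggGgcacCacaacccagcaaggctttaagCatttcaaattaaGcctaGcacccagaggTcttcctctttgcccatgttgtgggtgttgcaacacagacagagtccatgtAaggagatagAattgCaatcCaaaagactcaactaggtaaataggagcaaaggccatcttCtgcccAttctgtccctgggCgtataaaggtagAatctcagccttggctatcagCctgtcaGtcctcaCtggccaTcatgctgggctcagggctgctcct
Cyp2a12: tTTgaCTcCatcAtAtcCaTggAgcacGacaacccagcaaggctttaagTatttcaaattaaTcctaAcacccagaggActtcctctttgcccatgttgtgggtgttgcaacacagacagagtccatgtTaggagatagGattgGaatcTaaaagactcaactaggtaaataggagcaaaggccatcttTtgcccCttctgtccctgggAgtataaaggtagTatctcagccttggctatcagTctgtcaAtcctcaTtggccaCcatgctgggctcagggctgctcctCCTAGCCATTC
They were identical at 84.2% of alignment columns, with 27 substitutions and 22 unaligned bases counted as differences. Both held TATAAA, the TATA box, at 28 bases before the start site of Cyp2a22 and 39 before that of Cyp2a12. Of all promoter windows, 14.2% held TATAAA.

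In DBA/2J 5.0% of the 60 bins of Cyp2a22 were in states 1 to 4 and 93.3% in state 14. The other strains had 75% (NOD/ShiLtJ and PWK/PhJ), 78.3% (NZO/HlLtJ), 85% (A/J), 95% (129S1/SvImJ), 98.3% (WSB/EiJ) and 100% (C57BL/6J and CAST/EiJ). State 14 did not exceed 13.3% in any of them. The 4 bins of DBA/2J outside state 14 were 1 in state 6 within the gene, at chr7:26935401-26935600, and 3 at the start. The latter were 1 in state 4 and 2 in state 3, at chr7:26938801-26939400. DBA/2J was also the only strain with state 3 in a start bin of Cyp2a22. In the other 8 strains all 11 start bins were in states 1 to 4.

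The bins on both sides of Cyp2a22 were lower in DBA/2J as well, by a smaller margin. DBA/2J had 20.6% in states 1 to 4 in the 88.2 kb between Cyp2a5 and Cyp2a22, where the others had 24.0% to 49.0%. In the 89.4 kb between Cyp2a22 and Cyp2a12 DBA/2J had 19.9% and the others 24.8% to 40.3%. Cyp2a21-ps, a pseudogene at chr7:26945958-26952552 looked up after the genes had been seen, had 55.6% in DBA/2J and 79.6% to 100% in the others. State 14 segments of DBA/2J that covered Cyp2a22 ran on at both sides (chr7:26921801-26935400 and chr7:26939401-26948000). They reached into both flanks and into this pseudogene, so these low values partly count the same segments. Over the 7 genes together DBA/2J had 76.4% of bins in states 1 to 4, inside the range of the other strains. Whether the DBA/2J genome differs from the reference at Cyp2a22 was not tested.

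A gene with 1 strain at 10% or less and the other 8 at 50% or more in states 1 to 4 was rare. Only 0.0509% of all genes, 11 of 21631, met this description, and 2 of them were Cyp2b9 (129S1/SvImJ) and Cyp2a22 (DBA/2J). Cyp2b13 missed it because CAST/EiJ had 41.0%. The description was written after these values had been seen, so these counts carry no test.

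Cyp2a12 was wholly in states 1 to 4 in 5 strains and was mostly outside states 1 to 4 in its downstream portion in NOD/ShiLtJ. The share in states 1 to 4 was 60% in NOD/ShiLtJ, 88.3% in DBA/2J, 90% in A/J and in NZO/HlLtJ and 100% in 129S1/SvImJ, C57BL/6J, CAST/EiJ, PWK/PhJ and WSB/EiJ. From 2 kb before to 5 kb after the start site, NOD/ShiLtJ still had 85.7%. In the bins beyond it had 24.0%, with 64.0% in state 14, whereas the other strains had 76.0% to 100% there and 0% in state 14. The state 14 segment of NOD/ShiLtJ lay at chr7:27033601-27037200 and ran past the end of the gene. State 3 was present in 2 to 6 of the 11 start bins of Cyp2a12 in 7 strains and in none in NOD/ShiLtJ and PWK/PhJ. Cyp2a12 had the third highest mean share of state 1 among the 7 genes, 53.7% ± 10.3.

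Cyp2a4 and Cyp2a5 are the closest copies on the Cyp2a side, at chr7:26307192-26315088 and chr7:26835339-26843264, both on the plus strand. Their start regions (RefSeq, GRCm38.p6, plus strand, chr7:26306942-26307241 and chr7:26835089-26835388) are shown to make the likeness plain, with capitals at bases that have no identical partner, the unaligned end bases included.
Cyp2a4: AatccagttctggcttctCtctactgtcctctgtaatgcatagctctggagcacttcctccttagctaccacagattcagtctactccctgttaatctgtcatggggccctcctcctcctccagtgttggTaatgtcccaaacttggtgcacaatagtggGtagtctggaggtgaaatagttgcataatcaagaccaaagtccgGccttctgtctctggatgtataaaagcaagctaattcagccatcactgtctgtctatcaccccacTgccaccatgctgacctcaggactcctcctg
Cyp2a5: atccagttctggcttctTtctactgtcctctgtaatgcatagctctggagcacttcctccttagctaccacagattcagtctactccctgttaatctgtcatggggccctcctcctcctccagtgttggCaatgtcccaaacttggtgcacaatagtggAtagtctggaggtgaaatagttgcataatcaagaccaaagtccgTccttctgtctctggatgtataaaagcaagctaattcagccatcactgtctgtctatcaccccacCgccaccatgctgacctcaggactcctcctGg
They were identical at 97.7% of alignment columns, with 5 substitutions and 2 unaligned bases. Both held TATAAA, TTGCNNAA and CAAAGTCC before the start site. CAAAGTCC, an HNF4-type site, was present in 1.44% of all promoter windows and in no other of the 7 genes. Both also held AGGTCA, but on the minus strand and after the start site, by 30 bases in Cyp2a4 and 29 in Cyp2a5. TTCNNNGAA, a STAT-type site present in 8.47% of all windows, was not found in these letters in any of the 7 windows.

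Both genes were covered by states 1 to 4 in every strain. Cyp2a4 had 100% in 7 strains, 96.7% in NOD/ShiLtJ and 95.1% in CAST/EiJ. Cyp2a5 had 100% in 8 strains and 96.7% in NZO/HlLtJ. State 14 was at 0% in both genes in all 9 strains. Of all genes 1.53% had 90% or more of their bins in states 1 to 4 in all 9 strains, and of the 7 P450 genes Cyp2a4 and Cyp2a5 did.

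State 1 made up most of these genes. Its mean share was 92.2% ± 8.11 at Cyp2a4, from 78.7% in CAST/EiJ to 100% in 129S1/SvImJ and NZO/HlLtJ, and 79.1% ± 5.90 at Cyp2a5, from 70.5% in PWK/PhJ to 88.5% in 129S1/SvImJ. The means of state 1 were 30.2% ± 18.0 at Cyp2b9, 30.1% ± 15.99 at Cyp2b13, 27.2% ± 3.29 at Cyp2b10 and 21.7% ± 12.99 at Cyp2a22. Thus 129S1/SvImJ had the highest share of state 1 at Cyp2a5, and with NZO/HlLtJ at Cyp2a4, while it had 0% at Cyp2b9 and Cyp2b13. All 9 strains had the same state in 38 of 61 bins of Cyp2a4 (62.3%) and in 30 of 61 bins of Cyp2a5 (49.2%). The corresponding counts were 24 of 166 bins at Cyp2b10, 10 of 60 at Cyp2a12, 6 of 195 at Cyp2b13 and 0 at Cyp2b9 and Cyp2a22.

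Differences between strains at this pair of genes were mostly exchanges within states 1 to 4. At Cyp2a5 91.0% of all differing bins over strain pairs were state 1 in one strain and state 2 in the other. At Cyp2a4 53.1% were exchanges of states 1 and 2, and 33.8% of states 1 and 3. The latter came from CAST/EiJ and PWK/PhJ, each with 7 bins in state 3 at Cyp2a4, 5 of them among the 11 start bins. The other 7 strains, WSB/EiJ included, had 0. At Cyp2b13 the largest class was an exchange of states 2 and 14, with 25.4%, and at Cyp2a22 the same exchange, with 19.6%.

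Cyp2b10 kept its start region in every strain and varied along the body. It lies at chr7:25897658-25926624 on the plus strand, and its start region was identical to those of Cyp2b13 and Cyp2b9 at 71.7% of alignment columns, 22 unaligned bases included. From 2 kb before to 5 kb after the start site all bins were in states 1 to 4 in 8 strains, and 91.4% were in PWK/PhJ. Over the remaining bins the share was 32.1% in PWK/PhJ, 34.4% in A/J, 41.2% in NZO/HlLtJ, 63.4% in 129S1/SvImJ, 64.1% in DBA/2J, 64.9% in CAST/EiJ, 70.2% in NOD/ShiLtJ, 73.3% in WSB/EiJ and 74.8% in C57BL/6J. PWK/PhJ, A/J and NZO/HlLtJ were the low strains, and the other 6 strains all had 63.4% or more.

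What took the place of states 1 to 4 in the Cyp2b10 body differed between these strains. Over the whole span state 14 covered 44.6% in PWK/PhJ, 22.9% in NZO/HlLtJ and 12.0% in A/J, while state 6 covered 8.43%, 23.5% and 38.0%. In DBA/2J and NOD/ShiLtJ state 14 was at 0% and state 6 at 27.1% and 18.7%. The commonest exchange between strains was that of states 2 and 6, with 17.0% of all differences. Unlike at Cyp2b9 and Cyp2b13, 129S1/SvImJ was within the range of the other strains at Cyp2b10, with 71.1% in states 1 to 4.

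State 3 at the start was not a steady feature of any of the 7 genes. A mean of 46.8% ± 0.847 of the 17274 genes with a start site had state 3 in at least 1 start bin of a strain, and 41.2% had it in all 9 strains. Of the 7 P450 genes 0 had it in all 9. Cyp2b9 had it in 8 strains, Cyp2a12 in 7, Cyp2b13 in 5, Cyp2b10 in 2 (DBA/2J with 4 bins and NOD/ShiLtJ with 3), Cyp2a4 in 2, and Cyp2a5 (CAST/EiJ) and Cyp2a22 (DBA/2J) in 1 each.

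Wild-derived and classical strains overlapped at all 7 genes. The difference in mean share in states 1 to 4, wild-derived minus classical, was -1.61 points at Cyp2b10 (p = 0.798, exact two-sided permutation test, 3 against 6 strains), -5.81 at Cyp2b13 (exact permutation p = 0.821) and 6.65 at Cyp2b9 (exact permutation p = 0.810). It was -1.09 at Cyp2a4 (exact permutation p = 0.750), 0.55 at Cyp2a5 (exact permutation p = 1.0), 18.1 at Cyp2a22 (exact permutation p = 0.548) and 11.9 at Cyp2a12 (exact permutation p = 0.333). All 7 adjusted p-values were 1. The smallest p that 84 arrangements allow is 0.0119, and no gene of the genome passed after adjustment by this test, while 753 genes (3.48%) had an unadjusted p under 0.05. The 3 wild-derived strains lay wholly above the 6 classical strains at 0.892% of all genes and wholly below at 0.596%, and at 0 of the 7 P450 genes in either direction.

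The genes that regulate or serve these enzymes had high shares in states 1 to 4. All 16 of 16 listed regulators and partners were called above the strain median, against 46.0% of all genes, with a median of 94.5% in states 1 to 4. Their median pair difference was 22.7%, from 4.98% at Cebpb to 36.4% at Onecut1, and 0 of 16 reached 40%, against 7.38% of all genes. Nr1i3, Cebpa and Cebpb (C/EBP factors) and Foxa2 (a forkhead factor of liver) had 100% in all strains. Por had 99.0% ± 2.28 and Stat5b, the growth hormone-activated transcription factor, 85.6% ± 10.3. Bcl6, a repressor higher in male liver, had 95.6% ± 5.75, and Cux2, a repressor higher in female liver, was the lowest of the list with 24.7% ± 10.3.

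Other P450 families of the liver are given side by side. The median over the 7 genes was 79.1% in states 1 to 4 with a median pair difference of 50.7%. With Cyp2b19 and Cyp2b23 of the same cluster added after the values had been seen, these became 70.03% and 39.95%. The 15 Cyp2c genes found had medians of 25.6% and 38.6%, with 11 called above and 2 below the strain median and 7 at a pair difference of 40% or more. The 9 Cyp3a genes had 56.3% and 39.95%, with 8 called above and 4 at 40% or more, and Cyp3a41b had the highest pair difference, 70.2%. The 8 Cyp4a genes had 19.1% and 23.2%, with 4 called above, 3 below and 2 at 40% or more. Of all 21631 genes 46.0% were called above the strain median, 9683 genes were called below it and 7.38% had a pair difference of 40% or more. The Cyp4a calls above and below lie near these shares. The medians and counts of the families are descriptions, since the lists were chosen and members of a family share sequence.

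Of the 10 genes listed as neighbours 9 lie on chromosome 7, and Cyp2ab1 (0.62% ± 1.87) lies on chromosome 16. The 9 had a median of 51.9% in states 1 to 4, with 6 called above and 3 below the strain median. With Cyp2ab1, as listed, the median was 38.4%, with 6 above and 4 below. Of all 21631 genes 46.0% were called above and 9683 genes below. Cyp2f2, a P450 gene to the right of Cyp2a12, had 96.4% ± 4.33. Cyp2b23 (0%), Cyp2b19 (1.91% ± 3.99) and Cyp2s1 (0.61% ± 1.24) of the same cluster were called below the strain median. The highest value among them was 12.1%, at Cyp2b19 in CAST/EiJ. Cyp2g1, beside Cyp2a5, had 51.9% ± 20.5 and was the only neighbour with a pair difference above 40%, at 45.1%. The 520 kb between Cyp2a4 and Cyp2a5 had 11.7% ± 2.67 in states 1 to 4 and a mean of 81.1% in state 14, with 129S1/SvImJ at 14.8%, inside the range of the others.

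Cyp2a22 and Cyp2b13 had the widest ranges over strains, 95 and 89.2 points. Among 5306 other genes whose own range was 20 points or more, the shares most alike over the 9 strains were those of Gm32280 (r = 0.945), Tmem141 (r = 0.849) and Igfbp1 (r = 0.837) for Cyp2a22. For Cyp2b13 they were Ctdsp1 (r = 0.973), Rab42 (r = 0.850) and Cyp11b2 (r = 0.760). These are descriptions over 9 strains with no test. Each of the named genes had its lowest value in the same strain as its partner, DBA/2J or 129S1/SvImJ. The choice by r favours this, because a single extreme strain dominates the profile of each partner, so it is not a separate result. The sizes also differed, as Ctdsp1 ran only from 79.6% to 100%. Between Cyp2b9 and Cyp2b13 themselves r was 0.881 over the same 9 strains, which share 1 segmentation per strain. 129S1/SvImJ was the lowest strain at both genes (6.73% and 0%) and weighs heavily in this r, which was not taken without it. Other strains could part, as CAST/EiJ had 73.6% at Cyp2b9 and 41.0% at Cyp2b13.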

How the data were processed

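Histone mark ChIP-seq (117 libraries, 13 per strain) of female hepatocytes was available as 1 segmentation per strain. Per the file headers a segmentation is of hepatocytes of the strain it names, and the deposited value is a state number from 1 to 14 in steps of 200 bp, a category and not a count, signal or score. The column for a score holds 0 throughout. Per the submitters' processing notes the build is mm10, and FastQC 0.11.5 and MACS 1.4.2 were used, with no role stated. The aligner, the segmentation tool and the mark content of the states are not given in the sources used here. Read depth is unknown, so no interval for counting error is given. Placement of reads among genes with near-identical start regions could not be examined.

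Gene spans came from RefSeq (GRCm38.p6), and start sites and promoter sequences, matched for 7 of 7 genes by symbol, from RefSeq's promoter table of the same assembly. Spans were padded by 2 kb. For each gene and strain the percentage of bins in states 1 to 4, the percentage of bins differing between each of 36 strain pairs, and the states of the 11 bins within 1 kb of the start site were computed for all 21631 protein-coding genes (17274 with a start site for the last). Tests took a strain as 1 value: exact permutation by sign flips, two-sided, over 9 strains against the strain's median gene, and an exact two-sided permutation test of 3 wild-derived against 6 classical strains, a division taken from general knowledge of the strains. The p-values were adjusted by Benjamini-Hochberg over all genes and called at 0.05. The strains share ancestry, so they are not fully independent, and p-values measure only the spread between these segmentations. The code was tested on simulated data. Promoter windows were aligned globally in pairs with Biopython 1.88.

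The genes, lists and states 1 to 4 were chosen with earlier results of these data known. Genes named in the text are the 7 genes, any neighbour or regulator, the extremes of each other list, and the 3 most alike in pattern for the pair of members with the widest range. Pseudogenes, and single markers given as exceptions, were named after their values were seen. Alternatives covered the padding, the states counted, single-bin segments, 1000-bp windows, a match within 1 bin, other thresholds and each strain left out in turn. The software was scipy 1.17.1, numpy 2.4.6, matplotlib 3.10.9, pandas 2.3.3 and Python 3.11.15. Cyp2c44 was listed and not found in the annotation table.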

Additional observations from a re-analysis of the deposited data

Results flagged for a closer look

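In 28 sets of 9 strain values (4 measures for each of the 7 genes), 11 had a strain set apart by a gap larger than 0.493 of the whole range, where chance gives about 1 in 20 groups, or 1.4 sets. Values bounded at 100% with most strains at the bound are set apart by a small step, and measures of 1 gene are not independent.

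At Cyp2b13 129S1/SvImJ stood apart with 0% of start bins in states 1 to 4. At Cyp2b9 it stood apart with 6.73% of all bins and 0% of start bins, where the nearest strain had 56.2% and 100%. At Cyp2a22 DBA/2J stood apart on 3 measures, with 5.0% of bins and 27.3% of start bins in states 1 to 4, and with 95.2% of bins differing on average from the other 8 strains, where the nearest strain had 60%.

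At Cyp2a12 NOD/ShiLtJ stood apart with 60% of bins in states 1 to 4, with 30% in state 1 and with 71.2% of bins differing from the other strains, where the nearest had 88.3%, 50% and 39.8%. At Cyp2b10 PWK/PhJ had 90.9% of start bins in states 1 to 4 and all others 100%. At Cyp2a5 NZO/HlLtJ had 96.7% of bins and all others 100%. The last 2 are differences of 1 and 2 bins.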

How the results depend on the processing

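No paired analysis was possible because each strain has 1 segmentation that combines its mice, so replicate numbers carry no values. The share in states 1 to 4 against the strain median kept its direction and its call in all 105 values tried over the 7 genes and the alternatives. The wild-derived minus classical difference, which passed no threshold, changed sign or reached 0 under some. With no padding it was 0 at Cyp2a4 and Cyp2a5. With states 1 to 3 it was -0.56 at Cyp2b9, 0 at Cyp2a5 and 0.28 at Cyp2a22, and with states 1 to 4 and 6 it was 0 at Cyp2a4 and Cyp2a5. With CAST/EiJ and PWK/PhJ alone as wild-derived it was -0.88 at Cyp2b9. With each strain left out in turn it ran from -8.43 to 8.73 at Cyp2b10, from -20.2 (without 129S1/SvImJ) to 6.75 (without CAST/EiJ) at Cyp2b13, from -5.16 (without 129S1/SvImJ) to 14.7 at Cyp2b9, from -1.91 to 0.55 at Cyp2a4, from 0 to 0.66 at Cyp2a5, from 4.44 (without DBA/2J) to 26.1 at Cyp2a22 and from 6.33 (without NOD/ShiLtJ) to 14.3 at Cyp2a12. Of all genes, 193 were wholly higher and 129 wholly lower in the wild-derived strains. States 1 to 3 gave 239 wholly lower, states 1 to 4 and 6 gave 307 and 217, CAST/EiJ and PWK/PhJ alone gave 765 and 541, and leaving out each strain gave 209 to 765 and 150 to 541 (the highest without WSB/EiJ). Fewer strains in a group make such separation easier, and no setting let a gene pass after adjustment. The 1597 genes at a pair difference of 40% or more became 1019 with states 13 and 14 merged, 5050 over marked bins alone (bins outside state 14 in at least 1 strain), 566 with a match within 1 bin, 4914 at a threshold of 30% and 348 at 50%. The pair difference moved to 43.0% at Cyp2b10 and 13.8% at Cyp2a5 with a match within 1 bin, and to 12.9% at Cyp2a5 with no padding. The cause of these changes was not tested beyond the construction of each setting. With 1 value per strain and unknown depth, a difference between mice of a strain cannot be seen.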

Other observations

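The other 9 genes with 1 strain at 10% or less and the remaining 8 at 50% or more in states 1 to 4 lay outside the P450 cluster. In PWK/PhJ they were Mup22, Mup18 and Mup19, of the major urinary protein family, each with 0% in states 1 to 4 and 0% in state 14, and Mybph, Enho and Dcaf7, with 91.7%, 81.2% and 71.4% in state 14. In NOD/ShiLtJ they were Gm5111 and B4galnt1, and in A/J Sult3a1, a sulfotransferase, with 7.36% in states 1 to 4 and 59.5% or more in every other strain. They were named after their values had been seen.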
